A study of Mus musculus with 6 samples.

Results

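Epithelial cells are held together by junction complexes, and the 41 genes described here encode parts of these complexes. They comprise Epcam, 10 claudins, other tight junction proteins, the cell polarity complexes, the desmosome, catenins, connexins and the splicing regulators Esrp1 and Esrp2. They were chosen by symbol from a count table of 34718 genes, and all 41 were found there, Pals1 as Mpp5 and Patj as Inadl. RNA was sequenced from Hepa1-6, a mouse hepatoma line grown in culture. Libraries 1 to 3 of the control group are titled shNC and those of the knockdown group shZfp207, with the genotype given as Zfp207 knockdown. The labels give no other allele or agent for either group, and their tissue entry names a tumor although the cells are a cultured line. The number and sequence of the hairpins, their promoter and whether clones or pools were used are not stated in the labels, nor is it said whether replicates came from separate cultures. The spread behind the p-values is therefore that between these libraries alone, and it may be technical.

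Tight junctions seal the space between neighbouring epithelial cells. Claudins are the membrane proteins that form their strands, and some claudins tighten the seal while others, such as claudin-2, form channels for ions or water. EPCAM is a membrane glycoprotein of epithelia and of liver progenitors that binds claudin-7 in epithelial cells, and adult hepatocytes have little of it. The PAR and Crumbs complexes mark the apical side of the cell. Desmosomes tie the keratin filaments of neighbouring cells together through the desmosomal cadherins, desmogleins and desmocollins.

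Zfp207, the targeted gene, had 139.8, 198.6 and 216.2 CPM in controls 1 to 3, and the knockdown libraries had 48, 48.5 and 47.3 CPM, with no overlap (log2 fold change -1.95 ± 0.17, SE; edgeR's adjusted p = 0.00236). These CPM are counts per 1000000 after scaling of the libraries by TMM (trimmed mean of M-values). The gene counts summed to between 11933736 and 16248346 per library. Control replicate 1 stood apart from the other controls: 10.5% of its counts came from mitochondrially encoded genes, against 2.89% and 2.67% in control replicates 2 and 3 and 5.6% to 6% in the knockdown libraries. Across genes, which are not independent replicates, its log2 CPM had r = 0.95 with either of the remaining controls, against 0.989 between those. Results for the junction genes are therefore given with all libraries and, where it changes the call, without that library, and counts over further gene lists are given in both fits. Of the hepatocyte markers, Alb had 517.7 to 1209.8 CPM and Afp 733.0 to 939.8 CPM in the control libraries, while Ttr had at most 0.345 CPM in any library. The leukocyte markers Cd3e and Cd8a and the endothelial markers Stab2 and Erg had 0 counts throughout, while others on these lists were detected: Cd68 had 10.3 to 16.8 CPM, Pecam1 0.619 to 2 CPM and Vwf 0.368 to 2.07 CPM. Of the markers of fibroblasts Col1a1 had at most 0.735 CPM, while Dcn had 1995.1 to 2790.7 CPM. Ttr, Cd3e, Cd8a, Cd68, Stab2, Erg, Col1a1 and Dcn were picked after their values were seen.

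Counts of 26 of the 41 genes were high enough to test. The 26 include Epcam, 4 claudins, all 7 desmosome genes and 6 of the 7 polarity genes, and the lowest value of any of them in any library was 2.69 CPM (Pard6a). A gene was called when its adjusted p was below 0.05 in edgeR's quasi-likelihood test, adjusted by the Benjamini-Hochberg method over the 11975 genes tested. Of all genes tested 20.6% were called. Knockdown cells had 4 of the 26 genes called higher (15.4%), against 9.92% of all genes tested, and 3 called lower (11.5%), against 10.7%. Both shares lay near those of all genes, so the number of calls does not set these genes apart. The genes called higher were Dsc2, Prkci, Cgn and Cldn4, and those called lower were Epcam, Cldn3 and Pard6a. The median log2 fold change (knockdown over control) of the 26 was 0.15, against -0.03 over all genes tested. Without control replicate 1 the calls numbered 10 higher (38.5%) and 5 lower (19.2%), against 26.1% and 26.1% of the 12108 genes then tested (52.1% in all), and the median of the 26 was -0.00.

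**Figure D1:**
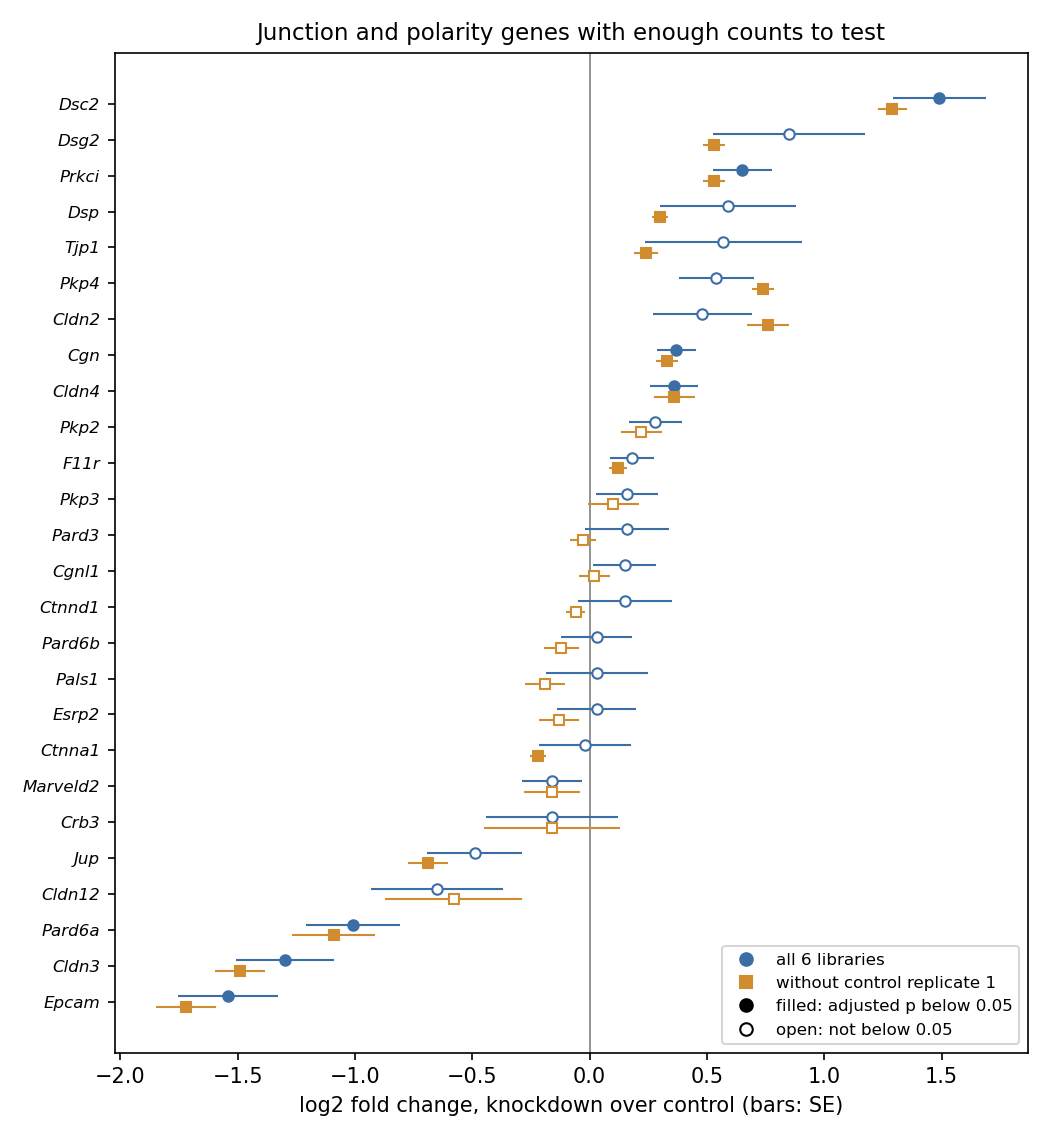
Log2 fold change of each of the 26 tested genes (x axis, knockdown over control, bars are SE), with all 6 libraries (circles) and without control replicate 1 (squares); filled symbols have an adjusted p below 0.05. Epcam, Cldn3 and Pard6a are lowest and Dsc2 is highest, and the SE of Dsg2, Dsp and Tjp1 shrinks when control replicate 1 is left out.

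The promoters of Epcam, Cldn3, Cldn4 and Cldn2 are shown because Epcam and Cldn3 were lower in knockdown cells while Cldn4 was higher and Cldn2 had a positive log2 fold change. The windows run from 250 bases before to 50 bases after the start site, 5′ to 3′ on the strand of the gene, from RefSeq on GRCm38.p6, the assembly that mm10 denotes. Capitals mark the E-box CAGGTG, a sequence that the repressors SNAI1 and ZEB1 are known to bind, and the GC box GGGCGG, on either strand (CACCTG and CCGCCC on the other), and no marked match overlaps another. The windows are chr17:87635729-87636028 for Epcam (plus strand), chr5:134985964-134986263 for Cldn3 (plus strand), chr5:134946885-134947184 for Cldn4 (minus strand) and chrX:139800558-139800857 for Cldn2 (plus strand).
Epcam: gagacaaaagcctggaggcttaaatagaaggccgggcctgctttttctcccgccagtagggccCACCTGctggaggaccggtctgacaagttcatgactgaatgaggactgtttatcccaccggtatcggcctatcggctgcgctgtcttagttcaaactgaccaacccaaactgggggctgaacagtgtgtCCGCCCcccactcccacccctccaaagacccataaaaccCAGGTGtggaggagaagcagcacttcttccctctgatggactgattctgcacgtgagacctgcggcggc
Cldn3: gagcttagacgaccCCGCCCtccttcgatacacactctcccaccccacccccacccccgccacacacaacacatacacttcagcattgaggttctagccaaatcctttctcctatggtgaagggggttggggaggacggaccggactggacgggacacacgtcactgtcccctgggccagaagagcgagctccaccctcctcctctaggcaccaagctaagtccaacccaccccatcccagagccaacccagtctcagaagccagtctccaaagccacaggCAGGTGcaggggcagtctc
Cldn4: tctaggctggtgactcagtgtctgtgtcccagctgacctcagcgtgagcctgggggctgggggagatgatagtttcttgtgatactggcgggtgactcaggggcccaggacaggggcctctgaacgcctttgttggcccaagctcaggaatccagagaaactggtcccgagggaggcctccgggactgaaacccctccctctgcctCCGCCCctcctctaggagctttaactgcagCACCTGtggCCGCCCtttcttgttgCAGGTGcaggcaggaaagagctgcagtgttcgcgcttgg
Cldn2: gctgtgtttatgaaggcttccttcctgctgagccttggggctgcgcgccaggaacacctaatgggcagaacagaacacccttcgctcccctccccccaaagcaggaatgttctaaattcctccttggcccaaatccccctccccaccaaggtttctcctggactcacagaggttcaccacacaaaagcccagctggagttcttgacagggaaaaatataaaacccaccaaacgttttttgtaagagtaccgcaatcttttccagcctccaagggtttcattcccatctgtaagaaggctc

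The E-box occurred in the windows of Epcam (2 matches, starting at -187 and -19 from the start site), Cldn3 (1, at 32) and Cldn4 (2, at -14 and 12), and not in that of Cldn2. The windows had a GC content of 57% (Epcam), 60.7% (Cldn3), 61% (Cldn4) and 51.3% (Cldn2). It was thus present at genes that fell and at a gene that rose. RefSeq promoters were at hand for 30 of the 41 genes, some with several start sites, and 19 of the 30 held it in at least 1 window (63.3%), against 20.5% of the 8929 tested genes with an entry. Counted by window, it was in 23 of 48 (47.9%), against 20.2% of all 32851. Among the called genes with an entry, it was found in all 3 that were lower and in 1 of 3 that were higher, and among those tested and not called in 7 of 13. The GC box was found in 25 of the 30 (83.3%) and in 69.5% of the 8929. The palindrome AACCGGTT, taken here as the site of the grainyhead-like factors, was in 0 of the 30 and in 0.28% of the 8929. A TATA box (TATAAA or TTTATA) was in 5 of the 30, Cldn2 among them, and in 8.6% of the 8929. The 30 include genes too low to test, such as Ocln and Cldn7, while the 8929 are tested genes only, so these shares compare unlike sets. A match is a string of letters and shows no binding.

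Epcam (ENSMUSG00000045394, chromosome 17, 87635979 to 87651106) fell in knockdown cells to 0.344 of its control level. Control replicates 1 to 3 had 14.8, 23.1 and 22.2 CPM of it, and knockdown replicates 1 to 3 had 5.83, 7.22 and 7.66 CPM. Every knockdown library lay below every control library, and control replicate 1 was the control nearest to them. The means were 20 ± 4.55 and 6.9 ± 0.952 CPM (SD, n = 3 each), a difference of -1.54 on the log2 scale (SE 0.212, edgeR adjusted p = 0.00643). The call was kept with each library left out in turn, with log2 fold changes from -1.72 to -1.43 and a highest edgeR adjusted p of 0.0436. Its exons overlap those of no other annotated gene.

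Cldn3 (chromosome 5, 134986214 to 134987472), which encodes a sealing claudin, fell with Epcam. It had 37.6, 54.6 and 65.7 CPM in controls, against 23.4, 20.2 and 20.7 CPM in the knockdown libraries, in the order of their replicates. The groups did not overlap, and the control values were spread more widely than the knockdown values. The means of 52.6 ± 14.2 and 21.4 ± 1.73 CPM (SD, n = 3 each) differed by -1.30 on the log2 scale (SE 0.209, edgeR adjusted p = 0.00935). The call was lost without knockdown replicate 2 or 3, with an edgeR adjusted p of at most 0.0573.

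Cldn4 (chromosome 5, 134945119 to 134946934), the neighbour of Cldn3, moved the other way. The genes lie 39279 bases apart on opposite strands, with 0 RefSeq genes lying wholly between them. Cldn4 had 19.9, 19.5 and 20.1 CPM in controls, against 26.6, 24.1 and 25.7 CPM in the knockdown libraries. All 3 knockdown libraries were above all 3 controls, and the controls were nearly level. The means were 19.8 ± 0.345 and 25.5 ± 1.25 CPM (SD, n = 3 each), and Cldn4 rose by 0.36 on the log2 scale (SE 0.101, edgeR adjusted p = 0.0478). This call was narrow. It was kept without control replicate 1 and lost with any other library left out, with an edgeR adjusted p of at most 0.169, and it was lost under upper-quartile scaling (0.0864) and in the fit of all genes with a count (0.0896).

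Cldn2, the gene of the channel-forming claudin-2 (chromosome X, 139800828 to 139811386), had 29.2, 17.5 and 17.9 CPM in controls, against 29.9, 31.6 and 28.4 CPM in the knockdown libraries. The groups overlapped because control replicate 1 lay among the knockdown values. Its log2 fold change, with its SE, was 0.48 ± 0.212 (edgeR adjusted p = 0.155), and without control replicate 1 it was 0.76 (SE 0.088, edgeR adjusted p = 4.90e-04). Cldn12, a widely expressed claudin gene, had 88.4, 60.5 and 93.7 CPM against 72.2, 36.7 and 45.6 CPM. It varied widely within both groups, the groups overlapped, and its log2 fold change of -0.65 (SE 0.281) did not pass (edgeR adjusted p = 0.148).

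**Figure D2:**
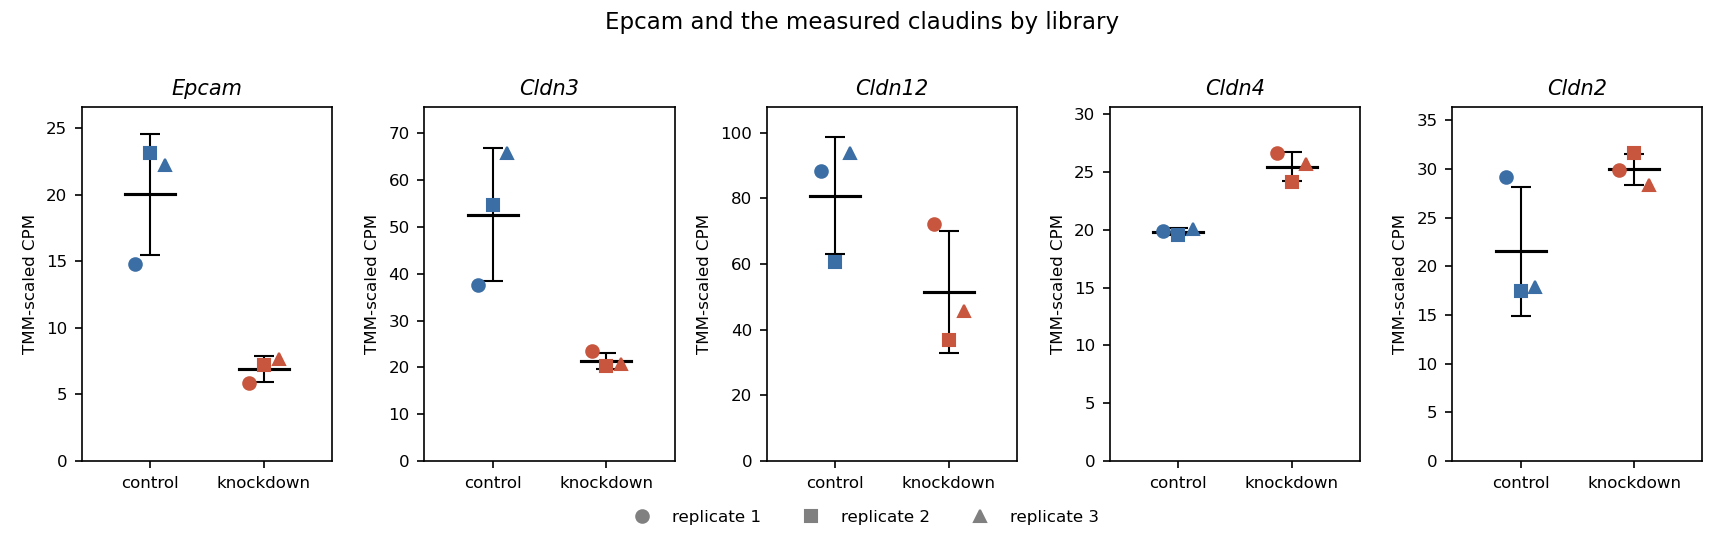
TMM-scaled CPM (y axis, from 0) of Epcam and the 4 tested claudins in each control and knockdown library; symbols are replicates, horizontal bars are means and error bars SD (n = 3). Epcam and Cldn3 are lower in every knockdown library, Cldn4 is higher in every knockdown library, and control replicate 1 of Cldn2 lies at the knockdown level.

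The other 6 listed claudins were near the limit of detection. Cldn1, the main sealing claudin of many epithelia, had 2 to 8 counts per library and Cldn7, the partner of EPCAM, 0 to 2. Cldn6, a claudin of embryonic tissue, had 4, 1 and 1 counts in controls, and 0 in each knockdown library, where 0 counts allow up to 0.197, 0.199 and 0.205 CPM (3 counts, counting error only). Cldn23 had 2, 2 and 13 counts against 1, 1 and 0. Cldn15 had 28, 0 and 9 counts in controls, and 5 to 8 in the knockdown libraries, and Cldn14 had 0 in all 6. Of 17 further claudin genes, 15 were in the table, 11 of these had 0 counts in all libraries, and none could be tested. The most abundant of them, Cldn9, had 0.368 to 0.828 CPM in control and at most 0.0656 CPM in knockdown libraries, followed by Cldn18 with at most 0.344 CPM.

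Set against the claudins as a group, Epcam changed more than the median claudin. The median log2 fold change of the 4 tested claudins was -0.14, from -1.30 (Cldn3) to 0.48 (Cldn2), and the log2 fold change of Epcam minus that median was -1.40, a description with no test. In the fit of all genes with a count, where 9 claudins had a median of -0.95, that difference was -0.59. Of the 4 claudins, Cldn3 was close to Epcam, and the other 3 were not. Of the claudins that only the fit of all genes with a count could test, Cldn6 (-4.17) and Cldn23 (-2.86) lay below Epcam. Cldn15 (-0.96), Cldn7 (-0.95) and Cldn1 (0.58) lay above it. All of these had few counts, and none passed. Levels of different genes were compared with the deposited FPKM values (fragments per kilobase of gene and per 1000000 fragments), which allow for gene length. The length behind them can differ from the annotated exons. Cldn12, with 4228 exonic bases, had 88.4 CPM but 6.03 FPKM in control replicate 1, while Cldn3, with 1259, had 37.6 CPM and 30.1 FPKM. The length used for Cldn12 was thus well above 4228 bases, which lowers its part in the claudin sum and raises the shares of the others. Summed over the 10 claudins, FPKM were 55.5, 62.4 and 74.7 in controls 1 to 3, and 45.7, 39.5 and 40.3 in the knockdown libraries. Epcam FPKM were 7.34, 11.3 and 10.9 against 2.86, 3.5 and 3.71. The ratio of Epcam to summed claudin FPKM was 0.132, 0.18 and 0.146 in controls, against 0.0624, 0.0888 and 0.0921 after knockdown. Epcam was thus lower relative to the claudin sum in each knockdown library. Relative to Cldn3 alone the groups overlapped, with 0.243, 0.261 and 0.209 in controls and 0.154, 0.221 and 0.228 after knockdown. The ratios of Epcam to Cldn4 and to Cldn2 were lower in every knockdown library than in any control.

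The make-up of the claudin transcripts also differed. Cldn3 made up 54.4%, 69.1% and 69.9% of the summed claudin FPKM in controls, against 40.6%, 40.2% and 40.3% after knockdown. Cldn4 made up 19.9%, 17.1% and 14.9% of it in control and 32%, 33.3% and 34.7% in knockdown libraries. Cldn3 remained the most abundant claudin per length in all 6 libraries, by less in the knockdown cells. The ratio of Cldn3 to Cldn4 FPKM was 2.73, 4.05 and 4.71 in control and 1.27, 1.21 and 1.16 in knockdown libraries. The mean log2 ratio was 1.90 in control and 0.28 in knockdown cells, a difference of -1.62, given as a description. Cldn3 was lower and Cldn4 higher in every knockdown library, so their ratio had to separate the groups and adds no separate evidence. Cldn2 made up 13%, 6.83% and 5.87% in control and 16%, 19.4% and 17% in knockdown libraries. All these shares are parts of the same sum, so with a smaller Cldn3 part the others together had to gain. The shares of Cldn4 and Cldn2 therefore add no separate evidence.

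**Figure D3:**
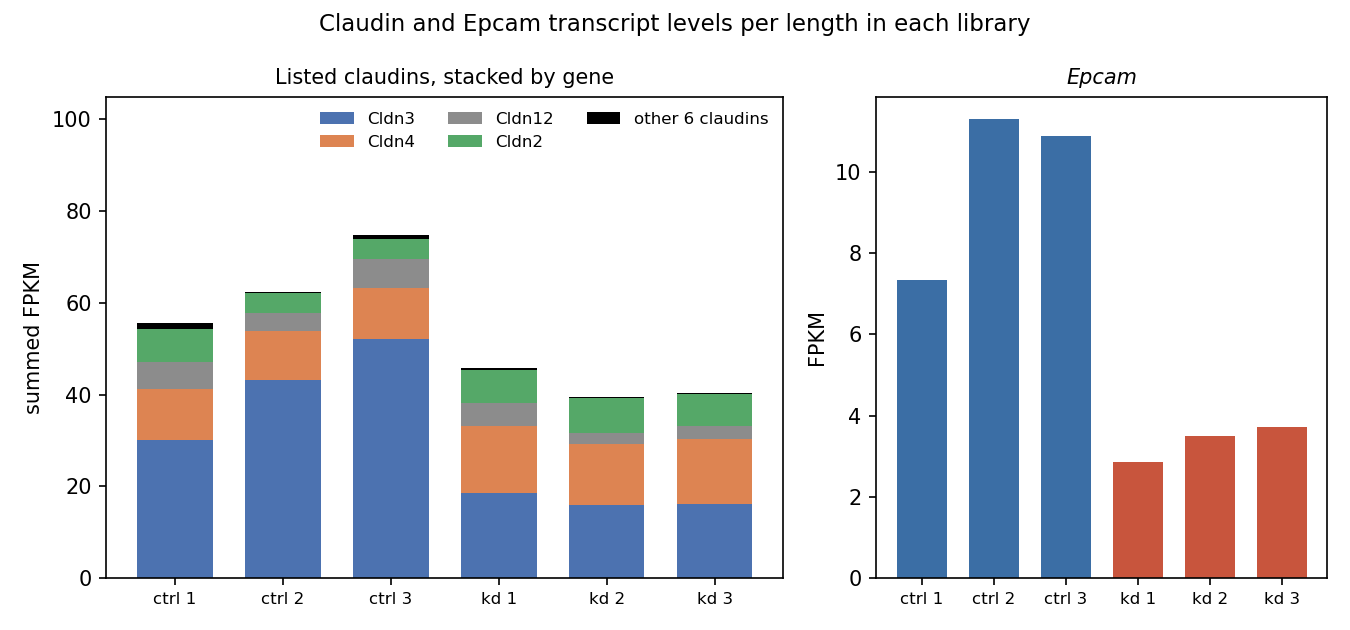
FPKM (y axes, from 0) in each library, stacked for the 10 listed claudins (left) and for Epcam (right). The Cldn3 part shrinks from 54.4% to 69.9% of the stack in control libraries to 40.2% to 40.6% in knockdown libraries, and Epcam falls from between 7.34 and 11.3 to between 2.86 and 3.71.

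Of the other tight junction genes, the scaffold gene Cgn, which encodes cingulin, rose. It had 102.7, 109.3 and 112.4 CPM in control and 138.9, 135.9 and 143.9 CPM in knockdown libraries, with no overlap. Its log2 fold change, with its SE, was 0.37 ± 0.0828 (edgeR adjusted p = 0.0251), and the call was kept without control replicate 1 and lost with any other library left out (at most 0.13) or in the fit of all genes with a count (0.0571). Tjp1, the gene of the scaffold ZO-1, had 187.2, 494.6 and 454.0 CPM in control and 539.3, 573.3 and 571.4 CPM in knockdown libraries. The knockdown libraries were above all controls, and control replicate 1 was far below the other controls. With all libraries the log2 fold change, with its SE, was 0.57 ± 0.335 (edgeR adjusted p = 0.272), and without control replicate 1 it was 0.24 (SE 0.0505, edgeR adjusted p = 0.00625). F11r, the gene of junctional adhesion molecule A, had 207.0 to 240.6 CPM in control and 255.7 to 263.5 CPM in knockdown libraries (log2 fold change 0.18, edgeR adjusted p = 0.213, and 0.0344 without control replicate 1). Cgnl1, or paracingulin, and Marveld2, or tricellulin, had log2 fold changes of 0.15 and -0.16 and overlapping groups.

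Several textbook tight junction genes had few counts in these cells. Ocln, the occludin gene, had 3, 9 and 9 counts in control and 1, 2 and 2 in knockdown libraries. In a fit that kept every gene with a count, Ocln had an edgeR adjusted p = 0.139, and none of the 12 listed genes that only this fit could test passed. Tjp3, the gene of the scaffold ZO-3, had 0 to 3 counts, and the adhesion molecule genes Jam2 and Jam3 had 0 in all libraries. Of 19 further tight junction genes 15 were tested, with 0 higher and 1 lower and a median log2 fold change of 0.21. Without control replicate 1 they were 5 higher and 2 lower, and here as for every further list the shares over all genes are 9.92% and 10.7% with all libraries and 26.1% and 26.1% without that control. The lower gene was Ildr2, an angulin gene of tricellular junctions, which fell from 7.15 ± 1.38 to 1.23 ± 0.31 CPM (SD, n = 3 each; log2 fold change -2.52 ± 0.269, SE; edgeR's adjusted p = 0.00357). A gene on the other strand overlaps 11% of its exons.

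The polarity genes were divided. Prkci, which encodes the atypical protein kinase C of the PAR complex, rose. It had 75.4, 100.9 and 95.8 CPM in control and 138.8, 144.4 and 144.6 CPM in knockdown libraries, without overlap. The means of 90.7 ± 13.5 and 142.6 ± 3.28 CPM (SD, n = 3 each) differed by 0.65 on the log2 scale (SE 0.125, edgeR adjusted p = 0.0154), and the call was lost without each knockdown replicate in turn (at most 0.0775). Pard6a, 1 of the PAR6 adaptor genes, fell to 0.496 of its control level. It had 5.71, 7.15 and 6.69 CPM against 3.67, 3.34 and 2.69 CPM, again without overlap. Its log2 fold change, with its SE, was -1.01 ± 0.2 (edgeR adjusted p = 0.0171), and only the fit without control replicate 1 kept the call among those with a library left out (at most 0.0821).

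Pard6b, the more abundant PAR6 gene per length, had 43.2, 58.9 and 62.2 CPM in control and 60.2, 53.8 and 53.7 CPM in knockdown libraries (log2 fold change 0.03 ± 0.152, SE; edgeR's adjusted p = 0.915). The ratio of Pard6b to Pard6a FPKM was 5.15, 5.61 and 6.33 in control and 11.2, 11 and 13.6 in knockdown libraries. Pard3, the PAR scaffold, and the Crumbs complex genes Crb3 and Pals1 had log2 fold changes of 0.16, -0.16 and 0.03, none of which passed. Patj, a Crumbs complex scaffold, had 0 to 5 counts per library. Of 30 further polarity genes, 24 were tested, 3 were higher and 1 lower, or 5 and 6 without control replicate 1, and the median log2 fold change was 0.03. Dlg5, a scaffold gene of the Discs large family, rose from 92.6 ± 12 to 198.8 ± 1.63 CPM (SD, n = 3 each; log2 fold change 1.10 ± 0.115, SE; edgeR's adjusted p = 0.00347). The kinase gene Mark3 rose by 0.69 and Slc9a3r1, the gene of the apical scaffold NHERF1, by 0.42 on the log2 scale, and the scaffold gene Pals2 fell by 0.45 on that scale.

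The desmosome genes included the largest log2 fold change among the 26 tested genes that rose. Dsc2, the gene of desmocollin-2 (chromosome 18, 20030633 to 20059554), had 25.8, 41.5 and 44 CPM in control and 105.7, 106.7 and 100.6 CPM in knockdown libraries. Each knockdown library had at least 100.6 CPM and no control more than 44. The means were 37.1 ± 9.84 and 104.3 ± 3.28 CPM (SD, n = 3 each), 2.81-fold apart, or 1.49 on the log2 scale (SE 0.199, edgeR adjusted p = 0.00598). The call was kept with each library left out, with log2 fold changes from 1.29 to 1.63 and an edgeR adjusted p of at most 0.0418. Dsc2 FPKM relative to those of Dsg2, its desmoglein partner, were 0.638, 0.412 and 0.436 in control and 0.752, 0.718 and 0.682 in knockdown libraries.

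In edgeR the calls of Dsg2, Dsp, Pkp4 and Jup depended on control replicate 1. An alternative method, DESeq2, called Dsg2 and Pkp4 with all libraries (DESeq2 adjusted p = 0.0445 and 0.0146), but not Dsp or Jup. Dsg2 had 43.5, 107.9 and 108.3 CPM in control and 150.9, 159.5 and 158.3 CPM in knockdown libraries. Dsp, the gene of the linker desmoplakin, had 159.2, 355.5 and 350.7 CPM against 426.5, 439.1 and 435.3 CPM. In both genes the groups did not overlap and control replicate 1 was the lowest library. With all libraries the log2 fold changes of Dsg2 and Dsp were 0.85 (SE 0.325, edgeR adjusted p = 0.111) and 0.59 (SE 0.291, edgeR adjusted p = 0.198). Without control replicate 1 they were 0.53 (SE 0.0455, edgeR adjusted p = 1.34e-04) and 0.30 (SE 0.0353, edgeR adjusted p = 5.46e-04), smaller in size but past the threshold.

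Pkp4, the gene of plakophilin-4, had 134.7, 90.9 and 94.4 CPM in control and 153.9, 151.6 and 159.0 CPM in knockdown libraries. Here control replicate 1 was the highest control, and the log2 fold change, with its SE, was 0.54 ± 0.161 (edgeR adjusted p = 0.0582), or 0.74 without that library (SE 0.0473, edgeR adjusted p = 4.69e-05). Jup, the gene of plakoglobin, which links desmosomal cadherins to desmoplakin, had the only negative log2 fold change of the 7 desmosome genes. It had 82.6, 136.0 and 131.8 CPM in control and 93.1, 79 and 77.2 CPM in knockdown libraries, with control replicate 1 at the knockdown level. Its log2 fold change, with its SE, was -0.49 ± 0.201 (edgeR adjusted p = 0.13), and without control replicate 1 it was -0.69 (SE 0.0848, edgeR adjusted p = 6.21e-04). Jup FPKM relative to those of Dsp were 0.596, 0.439 and 0.431 in control and 0.251, 0.206 and 0.204 in knockdown libraries. The plakophilin genes Pkp2 and Pkp3 had log2 fold changes of 0.28 and 0.16 and passed in neither fit.

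**Figure D4:**
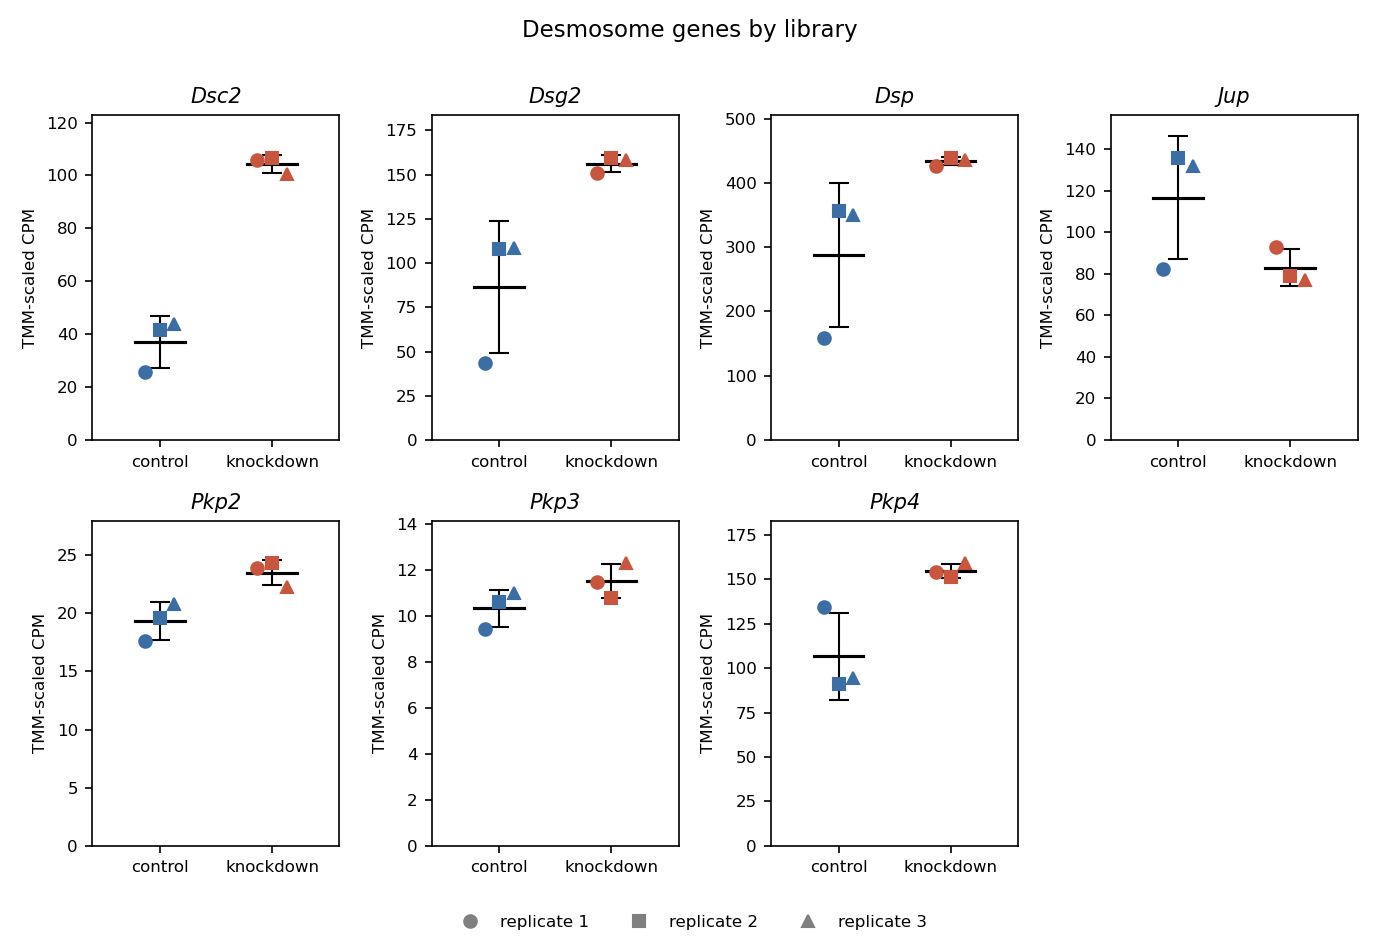
TMM-scaled CPM (y axis, from 0) of the 7 desmosome genes in each control and knockdown library; symbols are replicates, horizontal bars are means and error bars SD (n = 3). Dsc2, Dsg2, Dsp, Pkp2 and Pkp4 have all knockdown libraries above all controls, and control replicate 1 of Dsg2 and Dsp lies far below the other controls.

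Without control replicate 1, 4 of the 7 desmosome genes were higher and 1 was lower, in a fit that called 26.1% of all genes higher and 26.1% lower. With all libraries, 5 of the 7 had every knockdown library above every control. Over all 26 tested genes this held for 10 (38.5%), against 22.3% of all genes tested, and 3 were lower in every knockdown library (11.5%), against 22.4%. Of 11 further desmosome genes 4 were tested, with 0 higher and 1 lower, or 1 and 3 without control replicate 1, and a median log2 fold change of -0.72. The lower gene was Pkp1, another plakophilin gene, which fell from 7.71 ± 1.96 to 2.94 ± 0.399 CPM (SD, n = 3 each; log2 fold change -1.40 ± 0.25, SE; edgeR's adjusted p = 0.0128).

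The list holds 2 catenin genes whose products act with cadherins at adherens junctions. Ctnna1, the gene of alpha-catenin, had the highest FPKM of the 41 genes, 158.2 ± 40.3 in control and 155.2 ± 2.63 in knockdown cells (SD, n = 3 each). Its log2 fold change, with its SE, was -0.02 ± 0.197 (edgeR adjusted p = 0.964), and without control replicate 1, at 409.2 CPM against 673.8 and 672.5 CPM in controls 2 and 3, it was -0.22 (SE 0.0332, edgeR adjusted p = 0.00158). Ctnnd1, the gene of p120-catenin, differed by 0.15 on the log2 scale (SE 0.201, edgeR adjusted p = 0.641). Another gene on its own strand covers 61.2% of its exons, so its level is uncertain. Of 16 further adherens junction genes 13 were tested, 1 was higher and 1 lower, or 2 and 2 without control replicate 1, and the median log2 fold change was 0.17. Of the 2 higher without that control, Nectin4 passed the filter of that fit through knockdown libraries alone, so its call adds no support. Ctnnb1, the gene of beta-catenin, fell from 680.9 ± 10.7 to 429.5 ± 23.1 CPM (SD, n = 3 each; log2 fold change -0.66 ± 0.0917, SE; edgeR's adjusted p = 0.00643), and 14.6% of its exons are overlapped from the other strand. Plekha7, an adherens junction adaptor gene, rose from 26 ± 2.94 to 47.1 ± 2.94 CPM (SD, n = 3 each; edgeR adjusted p = 0.00652). Cdh1, the gene of E-cadherin, had 0.491 to 0.756 CPM in control and 0.828 to 1 CPM in knockdown libraries (edgeR adjusted p = 0.349), and Cdh2, the gene of N-cadherin, had 96.9 ± 1.29 and 118.4 ± 1.71 CPM (SD, n = 3 each). Cdh1 and Nectin4 were picked after their values were seen.

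Connexin genes, which encode the channels of gap junctions, could not be tested. Gja1 had 3 to 12 counts per library, Gjb1, the main connexin of hepatocytes, 0 to 12, and Gjb2 0 to 4. Of 18 further gap junction genes 8 had 0 counts in all libraries. Of the splicing regulators of epithelia, Esrp1 had 1 count in control replicate 2 and 0 elsewhere. Esrp2 had 22.4, 32.4 and 32.7 CPM in control and 29.2, 32.2 and 28.1 CPM in knockdown libraries. The groups overlapped, and its log2 fold change, with its SE, was 0.03 ± 0.167 (edgeR adjusted p = 0.923).

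Genes that bind or process EPCAM were examined beside it. Of 18 such genes 14 were tested, 3 were higher and 1 lower, or 3 and 4 without control replicate 1, and the median log2 fold change was 0.16. The higher genes were Fhl2 (log2 fold change 1.09), a transcriptional cofactor that binds the cleaved tail of EPCAM, the tetraspanin gene Cd9 (0.37) and the gamma-secretase gene Ncstn (0.34), and the lower was the protease inhibitor gene Spint2 (-0.37). Of 17 transcription factor genes of epithelia 11 were tested, 1 was higher and 0 lower, with a median log2 fold change of 0.04. Without control replicate 1, 12 were tested, 4 were higher and 1 lower. Of those 4, Grhl1 passed the filter of that fit through the knockdown libraries alone, so its call adds no support. Tfcp2l1 rose by 1.01 (SE 0.227, edgeR adjusted p = 0.0254), while Grhl2, an activator of epithelial junction genes, had 12.6 ± 1.33 and 11.8 ± 0.796 CPM (SD, n = 3 each). Of 15 genes of mesenchymal transition 11 were tested, 2 were higher, Sparc (0.79) and Cdh2 (0.29), and 0 lower, with a median of 0.04. Without control replicate 1, 4 of the 11 were higher, with Fn1 and S100a4 added, and 3 lower. The repressor genes Zeb1 and Snai1 differed by -0.18 and -0.25 on the log2 scale and did not pass (edgeR adjusted p = 0.693 and 0.282), and they were among the 3 lower genes without control replicate 1 (-0.43 and -0.36, edgeR adjusted p = 0.049 and 0.0367). The repressor gene Zeb2 passed in neither fit (0.27, and 0.18 without that control). Grhl1, Grhl2, Fn1, S100a4, Zeb1, Zeb2 and Snai1 were picked after their values were seen.

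Some markers of liver cell types differed between the groups beside the fall of Epcam, which biliary and progenitor cells also express. Of 10 markers of cholangiocytes and progenitors 5 were tested, 0 were higher and 3 lower, or 1 and 4 without control replicate 1, with a median log2 fold change of -0.63. The summed level of the 10 was 1119.8 to 1301.0 CPM in control and 630.6 to 637.6 CPM in knockdown libraries, and it consisted mainly of Spp1, with means of 813.4 and 370.9 CPM, followed by Sox4 and Sox9. Krt19, a biliary keratin gene named after its values were seen, lay on the other side, with 0.745, 0.344 and 0.246 CPM in control and 1.38, 0.869 and 0.828 CPM in knockdown libraries. Its log2 difference of 1.24 did not pass (edgeR adjusted p = 0.122) and was 1.78 without control replicate 1 (edgeR adjusted p = 0.0169). Krt19, the 1 higher gene of that fit, passed its filter through the knockdown libraries alone, so that p adds no support. Krt7, a keratin gene of bile ducts, fell from 26.3 ± 1.63 to 9.79 ± 0.509 CPM (SD, n = 3 each; log2 fold change -1.43 ± 0.114, SE; edgeR's adjusted p = 0.00191). Spp1, the osteopontin gene, fell by 1.13 and Sox4 by 0.47 on the log2 scale, while other genes overlap 18.8% of the exons of Spp1 on its own strand and 54.6% of those of Sox4 from the other strand. Of 10 genes listed as hepatocyte markers 6 were tested, with a median of 0.99. The 3 higher (4 without control replicate 1) were Afp (1.12), also a gene of fetal liver, Alb (1.29) and Apoa1 (0.85). The 1 lower was Trf (-0.55, with 63.5% of its exons shared with a gene on its strand). The summed level of the 10 was 2480.8 to 3425.0 CPM in control and 5189.9 to 5566.4 CPM in knockdown libraries. In control and knockdown cells, Alb had means of 959.4 and 2342.3 CPM and Afp of 867.5 and 1889.1 CPM. The list thus does not separate mature from fetal hepatocyte genes. Among the further genes named from these lists, Ildr2, Dlg5, Plekha7, Krt7, Spp1 and Afp stayed past the threshold whichever library was dropped, and each of the others lost its call in at least 1 such fit. The part of the marker shift in the values of Epcam was not tested, and in bulk RNA fewer cells of a kind and less RNA per cell cannot be told apart. Of the markers of other cells, 1 of 3 tested leukocyte genes was higher (Csf1r, which passed the filter through the knockdown libraries alone), 1 of 3 fibroblast genes was lower (Pdgfra; without control replicate 1, another, Dcn, was higher) and 0 of 2 endothelial genes, Vwf and Pecam1, passed, with summed levels of 15.1 to 19.5, 2022.1 to 2810.8 and 1.51 to 3.81 CPM.

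The position of control replicate 1 differed from gene to gene. Of the 26 tested genes it lay outside the other controls on the knockdown side in 12 (46.2%, against 54.7% of all genes tested), on the far side in 10 (38.5%, against 34.3%) and between the other controls in 4. On the knockdown side it was with Epcam, Cldn3, Cldn2, Jup and Pkp4, whose differences were larger without it. On the far side it was with Dsc2, Dsg2, Dsp, Tjp1 and Prkci, whose differences were smaller without it. Of the noncoding RNAs examined as signs of RNA quality, 0 of 4 passed with all libraries and 4 of 4 without control replicate 1. Malat1 reached 326.9 CPM in that library, against 30.9 and 30 CPM in controls 2 and 3 and 104.2 to 130.7 CPM after knockdown, and Xist had 501.8, 81.9 and 72.1 CPM against 327.1 to 354.2 CPM. The part of RNA quality in the values of the junction genes was not tested.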

How the data were processed

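Sequencing of RNA from Hepa1-6 cells gave 6 libraries, 3 control and 3 knockdown, grouped by their titles. The authors deposited whole-number read counts per gene with no normalization, and FPKM values for the same genes, per the file headers. The submitters' processing notes name the build mm10 and the tools featureCounts 1.5.0-p3 and HISAT2 2.0.5. The annotation and the strand setting are unknown here, so reads of overlapping genes on opposite strands may be mixed.

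Counts were analysed with edgeR 4.0.16 in R 4.3.3: filterByExpr on the groups, TMM scaling, and a quasi-likelihood model with the group as its only term over all 6 libraries. Benjamini-Hochberg adjustment covered every gene that passed the filter, and the threshold was 0.05. The SE is the size of the log2 fold change divided by the square root of F. The procedure was tested on simulated data. Those data held no outlying library such as control replicate 1, so they do not bear on calls that depend on it. FPKM were used to compare levels between genes. Gene identifiers were looked up in GENCODE M21, where all 41 were found, 31 with the same start and end. Exonic overlap comes from there, coordinates from the deposited tables, and promoters from RefSeq (GRCm38.p6), which held 30 of the 41.

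The 41 genes, the further lists and the tests were chosen with earlier results of these data known. Of each further list, up to 4 genes past the threshold with the smallest p are named, or the 2 most abundant where none passes. Genes named outside this rule are marked in the text. Some results under this rule are not reported here. Shared replicate numbers did not pair the libraries. Alternatives were RLE and upper-quartile scaling, a filter of 1 count in all, a filter of at least 10 counts in 3 libraries, DESeq2 1.42.0, limma 3.58.1 on log2(FPKM + 0.1) and log2(FPKM + 1), a replicate block, and each library left out.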

Additional observations from a re-analysis of the deposited data

How the results depend on the processing

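Under the 14 alternatives no called gene of the 41 changed direction, and Epcam and Dsc2 kept their calls in all 14. Leaving out 1 of the 6 libraries at a time, the number of genes called higher ranged from 1 to 10 (4 with all libraries) and that called lower from 1 to 5 (3 with all libraries), while the number over all genes ranged from 534 to 6313 (2466 with all libraries). The highest values came without control replicate 1 and the lowest without a knockdown replicate. The log2 fold change of Zfp207 ranged from -2.11 to -1.82. A filter of 1 count in all left 2 called higher, and the difference between Epcam and the median claudin became -0.59, since 9 claudins rather than 4 entered that median. With a replicate block 2 were called higher and 2 lower, with Cldn4 (edgeR adjusted p = 0.131), Cgn (0.0877) and Pard6a (0.0656) lost, 987 of all genes passed, and Epcam had a log2 fold change of -1.52 (edgeR adjusted p = 0.0299). The deviations of same-numbered libraries from their group means correlated at -0.008, 0.00771 and 0.0527, so the numbers were not taken as pairs. DESeq2 called 6 higher and 3 lower, adding Dsg2 and Pkp4, against 3238 of all genes. The other scaling, filter and limma settings gave 3 or 4 higher and 3 lower. Genes of a few CPM, such as Pard6a, and the 15 genes too low to test are limited by depth.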
